A study of Rattus norvegicus with 8 samples.

Results

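Aminoacyl-tRNA synthetases join each amino acid to its transfer RNA, the step that supplies the ribosome. Rat cells hold a cytosolic enzyme for nearly every amino acid and, encoded by separate nuclear genes, a mitochondrial enzyme that serves translation of the mitochondrial genome, while Gars (glycine) and Kars (lysine) make forms for both places. In mammals several cytosolic synthetases are bound in a multi-synthetase complex held by scaffold proteins, and many cytosolic synthetase genes are known targets of ATF4, the transcription factor made when amino acids are short or translation initiation is checked. Described here are 38 of the 32662 genes of the table, found by symbol. A cytosolic set of 22 held 20 synthetase genes and the scaffolds Aimp1 and Aimp2, and a mitochondrial set of 16 held the symbols that end in 2. Aimp2 ends in 2 as well, but it is a scaffold of the cytosolic complex and was kept there. Each symbol stood on 1 row.

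The first group was 4 samples of primary oligodendrocyte precursor cells put through oxygen glucose deprivation (OGD) for 6 h, which stands in culture for loss of blood supply. The Control group was 4 samples of the same culture in normal conditions. All came from the cerebral cortex of Sprague Dawley rats aged 1 to 2 days. Mixed glial cells were grown in 20% serum, and the cells that did not adhere were cultured for 4 to 5 days in Neurobasal medium with 2 mM glutamine, PDGF and FGF (10 ng/ml each), 2% B27 and 1% antibiotics. Whether the samples were separate cultures is not stated, so errors and p-values cover the scatter among the samples at hand and may be technical.

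Values were FPKM, fragments scaled to gene length and library total, so levels of different genes can be set side by side. Steps between low values gave relative depths of 0.814 to 1.17, with Control replicate 1 set to 1, and total depth is unknown. Of 5 markers of the oligodendrocyte lineage 3 (Olig1, Pdgfra and Cspg4) fell and 2 (Olig2 and Sox10) were not called. The highest, Olig1 and Olig2, averaged 356.5 ± 28.0 and 285.6 ± 25.7 FPKM in OGD and 794.5 ± 41.4 and 297.2 ± 11.2 FPKM in Control (SD, n = 4 each). Microglial genes were detected as well. Of 12 tested microglial markers 11 fell and Trem2 was not called, with a summed level of 71.6 to 130.2 FPKM in OGD libraries and 211.6 to 344.5 FPKM in Control libraries. Cx3cr1 and Ptprc, among the 11, reached the 1 FPKM needed for testing in Control libraries only, so their fall was partly set by that filter. The highest, C1qa and C1qc, averaged 19.3 ± 7.02 and 17.3 ± 5.51 FPKM in OGD and 60.0 ± 14.8 and 55.0 ± 13.4 FPKM in Control (SD, n = 4 each). The part of these cells in the values below was not tested. In bulk samples fewer cells of a type and less RNA per cell cannot be told apart. Vascular and stromal markers summed to at most 0.418 FPKM in any library, and Cldn5, Col1a2 and Dcn were listed at 0 in all. Astrocyte markers summed to 112.4 to 117.9 FPKM in OGD and 112.7 to 115.6 FPKM in Control, most of it Slc1a3 and Sox9. Gfap fell to 0.480 ± 0.258 FPKM in OGD, against 2.16 ± 0.618 FPKM in Control, and the other 4 tested were not called. Gfap too reached 1 FPKM in Control libraries only. Of 7 neuronal markers Tubb3 and Syt1 rose, Snap25 and Syn1 fell and 3 were not called, and the list, led by Map2 and Tubb3, summed to 268.5 to 346.2 FPKM in OGD and 275.5 to 340.9 FPKM in Control.

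The sets went apart. In OGD the summed level of the cytosolic set was 1240.7, 1161.4, 1298.1 and 1304.5 FPKM in replicates 1 to 4, against 867.5, 851.5, 810.3 and 817.5 FPKM in Control. The groups were apart, with OGD above. The mitochondrial set summed to 99.2, 104.2, 100.2 and 100.3 FPKM in OGD and to 102.4, 100.6, 97.0 and 99.3 FPKM in Control, ranges that overlap. The ratio of the sums, cytosolic over mitochondrial, was 12.4 ± 0.872 in OGD and 8.38 ± 0.114 in Control (SD, n = 4 each). As mean log2(FPKM + 1), the cytosolic set stood 2.83 ± 0.10 above the mitochondrial set in OGD and 2.32 ± 0.02 above it in Control, a difference of 0.50. The members were chosen by their FPKM in this same comparison of OGD and Control, so these values and the calls below describe the members and test nothing about them.

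**Figure D1:**
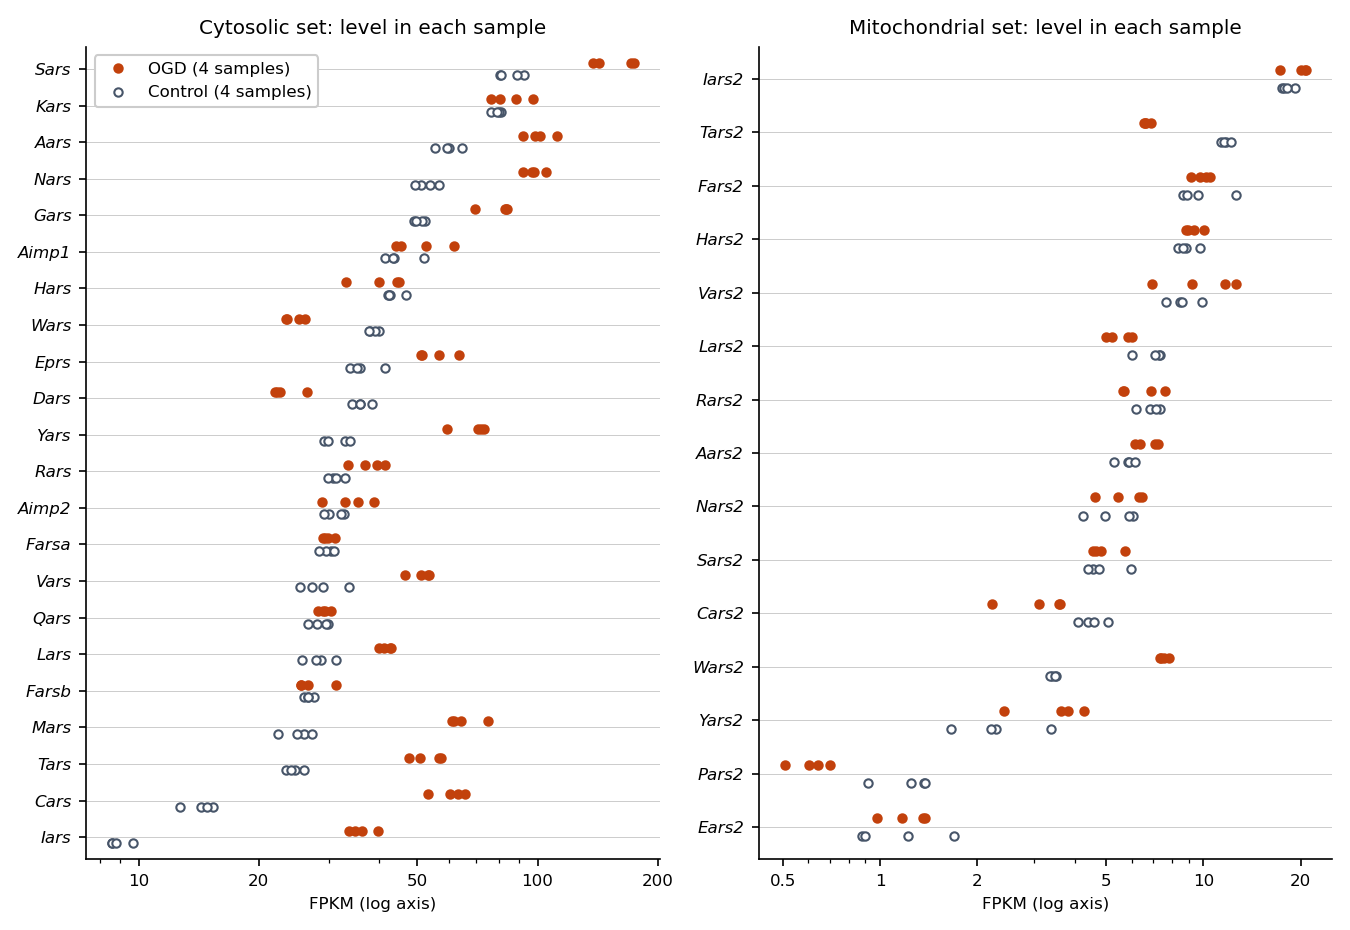
FPKM (log axis) of each member above 0 in each sample, OGD samples as filled points above Control samples as open points, ordered by Control mean. The lowest cytosolic genes in Control, Iars and Cars, have the OGD points farthest above their Control points, while most mitochondrial genes overlap.

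A gene was called when limma, fitted across 11149 genes, gave an adjusted p below 0.05 for OGD minus Control. Of all tested genes 49.5% were called, 22.7% higher and 26.8% lower. All 22 cytosolic members were tested, of which 13 rose (59.1%), 2 fell (9.09%) and 7 were not called. Their median log2 change was 0.57, beside -0.04 over all tested genes. Of the 16 mitochondrial members 14 were tested, of which 1 rose, 3 fell and 10 were not called, with a median log2 change of 0.05. OGD and Control values did not overlap for 44.7% of all tested genes, with OGD above for 20.7% and below for 24.1%. In the cytosolic set OGD lay above for 13 and below for 2 members, and in the mitochondrial set above for 2 (Wars2 and, narrowly, Aars2) and below for 3.

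**Figure D2:**
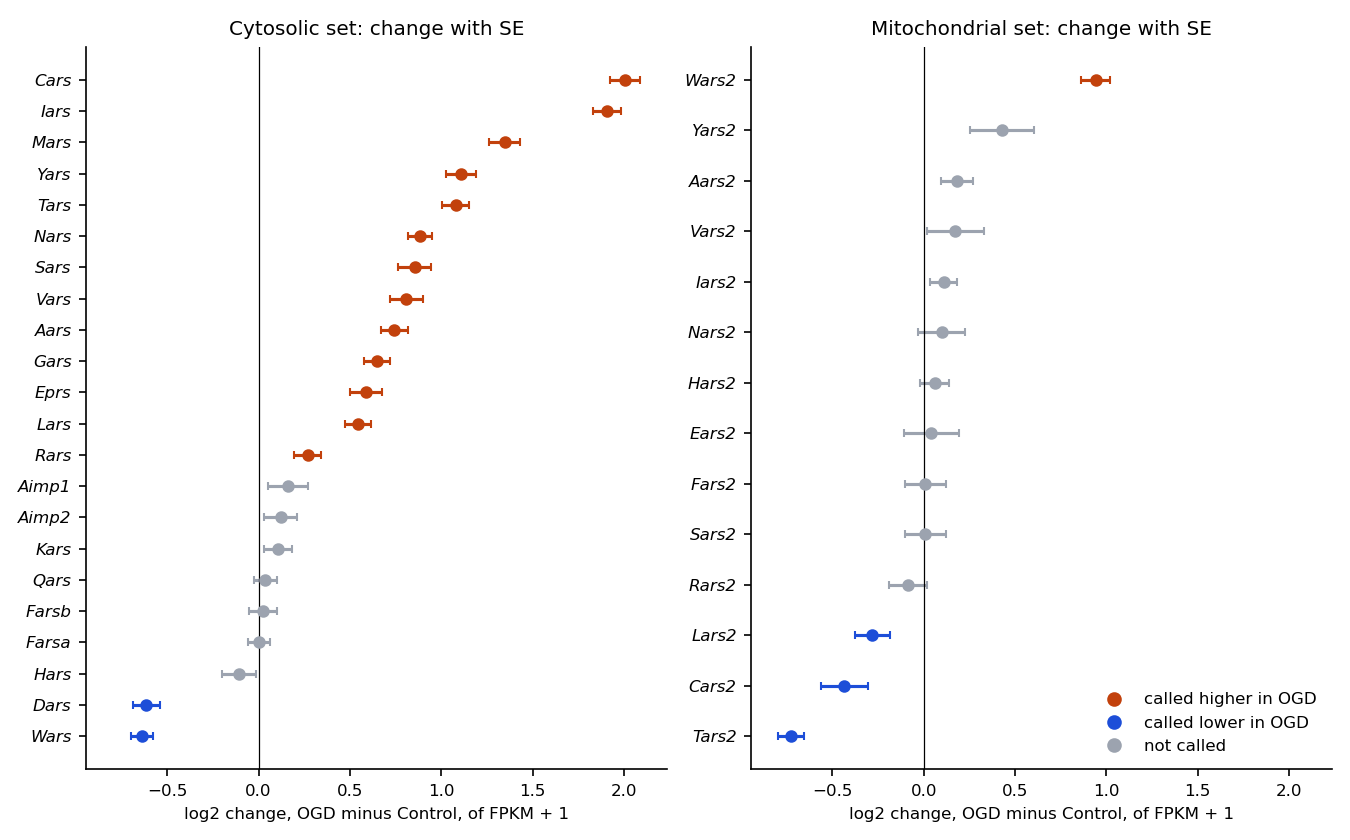
The log2 change of FPKM + 1, OGD minus Control, with its limma SE for each tested member, coloured by call. Cytosolic changes run from -0.64 (Wars) to 2.01 (Cars) and mitochondrial changes from -0.73 (Tars2) to 0.94 (Wars2).

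Cars (ENSRNOG00000020651), which charges cysteine, had the largest rise. It was at 60.2, 53.0, 63.1 and 65.9 FPKM in OGD replicates 1 to 4 and at 12.7, 15.4, 14.3 and 14.8 FPKM in Control, a 4.23-fold difference of means and a log2 change of 2.01 ± 0.08 (SE, limma). It stood 29th among all tested genes ordered from the largest rise. Iars (ENSRNOG00000014616), the isoleucine enzyme of the complex, was at 36.3, 33.7, 34.9 and 39.9 FPKM in OGD and at 8.59, 9.70, 8.58 and 8.78 FPKM in Control. Its log2 change was 1.91 ± 0.08, and it was the lowest cytosolic synthetase in all 4 Control libraries and in 0 of 4 OGD libraries. Mars, the methionine enzyme, which also charges the initiator tRNA, was at 75.0, 64.4, 61.1 and 61.7 FPKM in OGD and at 25.9, 25.0, 27.2 and 22.4 FPKM in Control (log2 change 1.35 ± 0.08). No OGD value of these 3 genes came near a Control value.

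Yars (tyrosine) followed, with 71.0, 59.4, 72.2 and 73.3 FPKM in OGD against 32.9, 34.0, 29.1 and 29.9 FPKM in Control, a log2 change of 1.11 ± 0.08. Tars (threonine) was at 50.7, 47.6, 57.4 and 56.7 FPKM in OGD and at 24.7, 26.0, 23.4 and 24.1 FPKM in Control, a log2 change of 1.08 ± 0.07. For both genes the lowest OGD library was replicate 2, and it still lay above every Control library. Nars (asparagine) was at 105.3, 91.7, 97.0 and 98.1 FPKM in OGD against 53.7, 56.5, 51.1 and 49.4 FPKM in Control (0.88 ± 0.07). Sars (serine), the highest synthetase in all 8 libraries, was at 142.7, 137.4, 174.1 and 171.7 FPKM in OGD against 92.4, 80.6, 81.1 and 89.0 FPKM in Control (0.85 ± 0.09). Vars (valine) was at 53.3, 53.2, 50.9 and 46.6 FPKM in OGD against 33.7, 28.9, 27.1 and 25.4 FPKM in Control (0.81 ± 0.09). Sars thus rose by the most FPKM, though 6 genes had a larger log2 change.

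Aars (alanine), Gars, Eprs, Lars (leucine) and Rars (arginine) completed the 13 that rose, with log2 changes of 0.74, 0.65, 0.59, 0.54 and 0.27. Gars, which serves cytosol and mitochondria, was at 83.5, 69.9, 83.7 and 83.1 FPKM in OGD and at 52.3, 51.3, 49.1 and 49.7 FPKM in Control. Kars, which serves both too, was at 76.5, 80.3, 88.3 and 97.2 FPKM in OGD and at 80.7, 80.2, 76.4 and 79.2 FPKM in Control, with a log2 change of 0.11 ± 0.08. Its groups overlap and it was not called, though with quantile normalization it was (0.22). Eprs, a single protein that charges both glutamate and proline, averaged 55.6 ± 5.88 FPKM in OGD and 36.6 ± 3.33 FPKM in Control (SD, n = 4 each).

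Wars and Dars were the cytosolic genes that fell. Wars (ENSRNOG00000004359, tryptophan) was at 23.4, 25.2, 26.1 and 23.5 FPKM in OGD and at 38.1, 40.0, 39.2 and 37.7 FPKM in Control, a log2 change of -0.64 ± 0.06. Dars (aspartate) was at 22.6, 22.2, 22.0 and 26.4 FPKM in OGD and at 38.5, 35.9, 34.3 and 35.8 FPKM in Control, a log2 change of -0.62 ± 0.07. Neither gene had overlapping groups, and between them they were the lowest cytosolic synthetase in every OGD library. WARS is known as an interferon-inducible gene in human cells, and interferon-inducible genes were read beside it. Of 9 tested genes of that list 6 fell and 3 were not called, while 26.8% of all tested genes fell. The list of 18 matched genes summed to 124.6 to 152.3 FPKM in OGD and 152.7 to 183.9 FPKM in Control. Most of that sum was B2m and Psmb10, both not called. B2m averaged 90.8 ± 7.57 FPKM in OGD and 102.0 ± 8.87 FPKM in Control, and Psmb10 24.8 ± 3.08 and 30.2 ± 4.70 FPKM (SD, n = 4 each). Matched genes of the list that did not reach the filter were not tested. Isg15, an interferon-induced ubiquitin-like protein, averaged 0.391 ± 0.0592 FPKM in OGD and 1.69 ± 0.0841 FPKM in Control (SD, n = 4 each). It is counted among the 6, but reached 1 FPKM in Control libraries only. Its entry into the tests thus rested on the group where it is high, and its fall was partly set by the filter. Irf1, a transcription factor of the interferon response, fell by 0.82 and the antiviral GTPase gene Mx2 by 0.64 on the log2 scale (limma adjusted p = 0.00137 and 0.00283). Their part in the values of Wars was not tested, nor was that of the microglial cells.

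The cytosolic members not called were Farsa, Farsb, Hars, Kars, Qars, Aimp1 and Aimp2, with log2 changes from -0.11 (Hars) to 0.16 (Aimp1). Farsa and Farsb, the alpha and beta subunits of the phenylalanine enzyme, stood at like levels. Their FPKM ratio was 1.11, 1.14, 1.17 and 0.998 in OGD replicates 1 to 4 and 1.17, 1.07, 1.07 and 1.16 in Control. Qars, the glutamine enzyme, averaged 29.2 ± 0.921 FPKM in OGD and 28.5 ± 1.48 FPKM in Control (SD, n = 4 each).

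Neither the synthetases of the multi-synthetase complex nor those outside it moved as a block. Of the 8 in the complex Iars, Mars, Eprs, Lars and Rars rose (62.5%), Dars fell, and Kars and Qars were not called. Of the 12 cytosolic synthetases outside it 8 rose (66.7%), 1 fell and 3 were not called. Among all tested genes 22.7% rose and 26.8% fell. The scaffold Aimp1 averaged 51.0 ± 8.09 FPKM in OGD and 45.2 ± 4.69 FPKM in Control, and Aimp2 34.0 ± 4.22 FPKM in OGD and 31.0 ± 1.76 FPKM in Control (SD, n = 4 each). The third scaffold, Eef1e1, was outside the 38 genes and was not called either (15.4 ± 0.800 FPKM in OGD, 13.8 ± 1.81 FPKM in Control, SD, n = 4 each; limma adjusted p = 0.198). Within a library the highest synthetase of the complex, Kars in all 8, stood 3.38, 3.62, 4.02 and 3.68 times above the lowest in OGD, and 9.40, 8.27, 8.90 and 9.03 times above it in Control. The lowest was Dars in every OGD library and Iars in every Control library. By structural class, 7 of 9 class I cytosolic synthetases rose and 1 fell, and 5 of 10 of class II rose and 1 fell. Eprs, which holds both classes, was left aside. The shares of all tested genes given above apply here too, and a difference between classes was not tested.

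**Figure D3:**
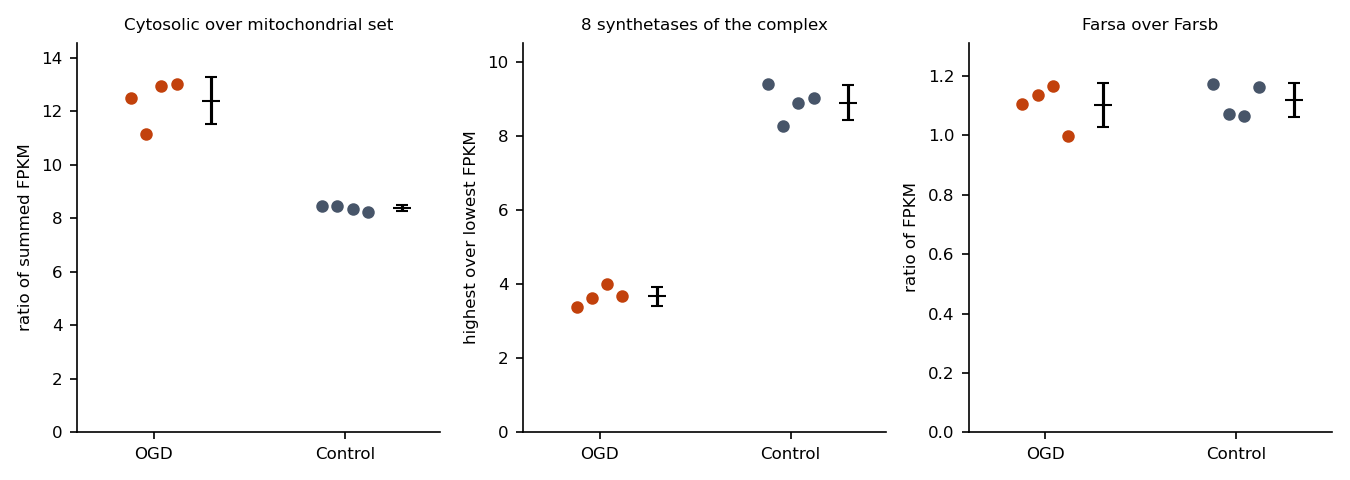
Values of each sample as points, with mean and SD (n = 4) beside them, for the ratio of summed FPKM of the cytosolic over the mitochondrial set, the ratio of the highest over the lowest FPKM among the 8 synthetases of the complex, and the FPKM ratio of Farsa over Farsb. OGD and Control points are apart in the first panel (12.4 and 8.38 on average) and in the second, and overlap in the third.

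Promoter sequences were read for the element that ATF4 is known to bind with its C/EBP partners, since it lies in many synthetase promoters. The core letters TGATGNAA were searched on both strands in RefSeq windows of 250 bases before to 50 after the annotated gene start (build GRCr8). Windows were matched for 35 of the 38 members. Dars, which fell, and Gars and Rars, which rose, had no window, so their promoters were not read. The element stood in 7 of 19 cytosolic members (36.8%) and 0 of 16 mitochondrial members, beside 3.98% of all 33469 windows and 2.02% of 8651 tested genes with a window. The 7 were Cars, Iars, Mars, Yars, Tars, Nars and Aars, and all were among the 11 cytosolic members with a window that rose. The element was searched because it is known in synthetase promoters, and the members were chosen by the values behind the calls. The shares and the split by call therefore describe these genes and test nothing. Eprs, Lars, Sars and Vars rose as well and held no copy in this window. Over all tested genes with a window the share was 3.32% of those that rose, 1.85% of those that fell and 1.5% of those not called. In the amino acid sensing and ATF4 list it was 4 of 19 (21.1%).

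Of the 8 copies in these promoters, 7 read TGATGCAA or its reverse complement TTGCATCA, and 4 began within 30 bases before the gene start. Those 4 are shown first, as the last 60 bases before the start, 5′ to 3′ on the strand of the gene, with the element in capitals.
Iars (chr17:15193653-15193712, minus strand): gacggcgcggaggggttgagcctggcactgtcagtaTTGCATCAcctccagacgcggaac
Mars (chr7:65023754-65023813, minus strand): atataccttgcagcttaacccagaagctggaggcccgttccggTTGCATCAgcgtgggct
Nars (chr18:60275783-60275842, minus strand): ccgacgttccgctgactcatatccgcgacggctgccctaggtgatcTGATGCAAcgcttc
Tars (chr2:62114803-62114862, minus strand): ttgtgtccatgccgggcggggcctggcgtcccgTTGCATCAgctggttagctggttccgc
The element began 24, 17, 14 and 27 bases before the start in Iars, Mars, Nars and Tars. The remaining copy before the start, a second one in Aars, began 112 bases before it, read TTGCATCA and is not shown. The 3 copies after the start, in Aars, Cars and Yars, are shown in 30 bases each.
Aars (chr19:55908480-55908509, plus strand): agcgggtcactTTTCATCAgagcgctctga
Cars (chr1:208225334-208225363, minus strand): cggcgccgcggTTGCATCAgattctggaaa
Yars (chr5:146820183-146820212, plus strand): cggagctacgagctcagcTGATGCAAcctg
A match stood in only 2.02% of tested genes with a window, so its lack in any few genes was likely beforehand and tests nothing. Eprs, Lars, Sars and Vars rose without a copy and are not shown. The last 60 bases before the start of Wars and Tars2, which both fell, are shown and held no match.
Wars (chr6:133571646-133571705, minus strand): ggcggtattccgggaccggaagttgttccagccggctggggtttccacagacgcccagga
Tars2 (chr2:185999114-185999173, minus strand): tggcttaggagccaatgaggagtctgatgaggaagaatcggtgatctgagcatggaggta
A match is a run of letters, not a measured site.

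**Figure D4:**
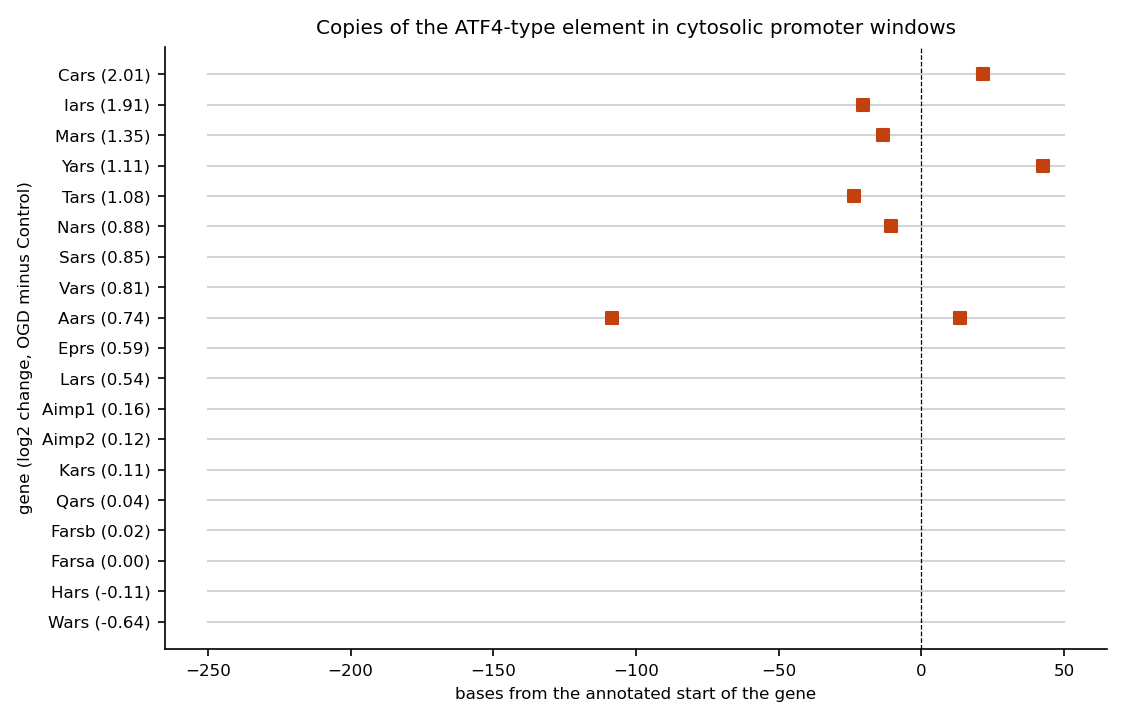
Each grey line is the promoter window of a cytosolic member with a RefSeq match, from 250 bases before to 50 after the gene start (dashed), and each square is a copy of TGATGNAA on either strand. Genes are ordered by log2 change (in brackets), and the 6 at the top with the 9th, Aars, hold the copies. The order describes these genes and tests nothing.

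The core of the hypoxia response element, ACGTG, was searched in the same windows and on both strands. It stood in 9 of 19 cytosolic members (47.4%) and 9 of 16 mitochondrial members (56.2%), beside 27.4% of tested genes with a window. By call, it stood in 7 of the 11 cytosolic members that rose (63.6%, the same share as for TGATGNAA) and in 2 of the 7 not called (28.6%), beside 28.3% of all tested genes that rose and 28.3% of those not called. The strict palindromic form of the NRF1 motif, common in promoters of nuclear genes for mitochondrial proteins, stood in 1 member, Wars2, and in 2.13% of tested genes with a window.

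Most mitochondrial genes were not called, and their median level was below the cytosolic one in both groups. Their group means ran up to 19.7 FPKM in OGD and 18.1 FPKM in Control (Iars2 in both), with medians of 6.08 FPKM in OGD and 5.53 FPKM in Control. The cytosolic medians were 51.0 FPKM in OGD and 31.3 FPKM in Control. Wars2 (ENSRNOG00000019508), the mitochondrial tryptophan enzyme, was the only mitochondrial member called higher. It was at 7.32, 7.55, 7.82 and 7.38 FPKM in OGD and at 3.40, 3.36, 3.49 and 3.49 FPKM in Control, a 2.19-fold difference of means and a log2 change of 0.94 ± 0.08. Both groups were tight, with coefficients of variation of 2.97% in OGD and 1.83% in Control.

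Tars2 (ENSRNOG00000057194), the mitochondrial threonine enzyme, fell the most of the 36 tested members. It was at 6.90, 6.58, 6.53 and 6.66 FPKM in OGD and at 11.3, 11.7, 11.6 and 12.2 FPKM in Control, a log2 change of -0.73 ± 0.07. Cars2 (cysteine) was at 3.58, 3.11, 3.59 and 2.23 FPKM in OGD and at 5.07, 4.40, 4.09 and 4.59 FPKM in Control (-0.44 ± 0.13). Without Control replicate 1 and OGD replicate 4 together its change was -0.28 and not called. Lars2 (leucine) was at 5.85, 6.00, 5.22 and 4.98 FPKM in OGD and at 7.32, 7.28, 6.03 and 7.06 FPKM in Control (-0.28 ± 0.10). Its groups are nearly touching, and its call was lost without Control replicate 1, 2 or 4 (-0.26, -0.26 and -0.27) or OGD replicate 3 or 4 (-0.26 and -0.24), and with rescaling outside mitochondrially encoded genes (-0.25).

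Yars2 (tyrosine) was at 3.64, 4.27, 2.42 and 3.82 FPKM in OGD and at 3.38, 2.28, 1.66 and 2.21 FPKM in Control. Its log2 change of 0.43 ± 0.17 was not called. It was called in 6 of 15 alternatives, among them without Control replicate 1 (0.56) or OGD replicate 3 (0.56). Aars2 (alanine) was at 7.08, 7.24, 6.37 and 6.14 FPKM in OGD and at 5.83, 5.87, 5.29 and 6.14 FPKM in Control (0.18 ± 0.09, not called). The other 8 tested mitochondrial members, Ears2, Fars2, Hars2, Iars2, Nars2, Rars2, Sars2 and Vars2, ranged from -0.09 (Rars2) to 0.17 (Vars2) and were not called. Vars2 (valine) was the only one of these called without a single library, at 0.32 without OGD replicate 4. Pars2 (proline) reached 1 FPKM in only 3 samples and was not tested. It was at 0.643, 0.507, 0.603 and 0.702 FPKM in OGD and at 0.919, 1.25, 1.37 and 1.38 FPKM in Control, so the groups were apart. Mars2 (methionine) was listed at 0 in all 8 samples, which may be a failed estimate.

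Set beside each other by amino acid, the 2 genes could go in opposite directions. In 15 pairs with both partners tested (Fars2 stands in 2 of them), the cytosolic change was the larger in 12 and the smaller in 3. The pair that differed most was Cars and Cars2, by 2.44 on the log2 scale. The FPKM ratio of Cars over Cars2 was 16.8 to 29.6 in OGD libraries and 2.51 to 3.50 in Control libraries. Tars and Tars2 differed by 1.81, with ratios of 7.23 to 8.79 in OGD and 1.98 to 2.22 in Control. Tryptophan was reversed, with Wars falling and Wars2 rising, a difference of -1.58. The ratio of Wars over Wars2 was 3.19 to 3.34 in OGD and 10.8 to 11.9 in Control. For isoleucine the order of the levels changed. Iars stood below Iars2 in every Control library (ratio 0.484 to 0.505) and above it in every OGD library (1.68 to 2.11), while Iars2 was at 17.2, 20.1, 20.6 and 20.7 FPKM in OGD and at 17.5, 19.2, 17.7 and 18.2 FPKM in Control.

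The pair that differed least was Farsa and Fars2 (-0.01), with Fars2 at 9.16, 10.2, 9.74 and 10.5 FPKM in OGD and at 12.6, 9.59, 8.64 and 8.88 FPKM in Control. Farsa was at 29.4, 29.0, 29.8 and 31.1 FPKM in OGD and at 30.4, 29.5, 28.3 and 30.9 FPKM in Control. Neither moved beyond its spread between samples. Hars and Hars2 lie on opposite strands of chromosome 18, and their promoter windows share 243 bases. Hars averaged 40.6 ± 5.42 FPKM in OGD and 43.5 ± 2.14 FPKM in Control, and Hars2 9.30 ± 0.551 FPKM in OGD and 8.89 ± 0.592 FPKM in Control (SD, n = 4 each). Neither was called. In 9 of the 15 pairs the ratio of cytosolic over mitochondrial FPKM did not overlap between groups, with OGD above in 8 and below in 1, tryptophan. Among single tested genes 44.7% did not overlap, and no share was taken for ratios of other gene pairs. The count describes these pairs and has no background of its own.

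**Figure D5:**
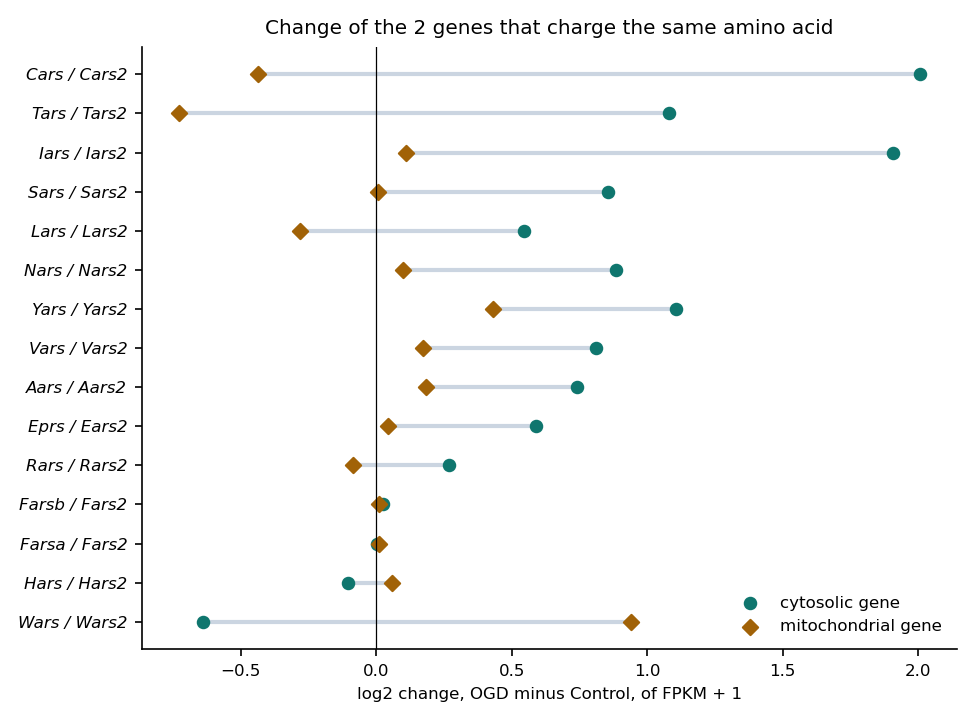
The log2 change of FPKM + 1, OGD minus Control, of the cytosolic gene (circle) and the mitochondrial gene (diamond) that charge the same amino acid, for the 15 pairs tested. The lines are longest for Cars and Cars2 (2.44) and run the other way for Wars and Wars2 (-1.58).

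The genes around the synthetases were read from lists that hold none of the 38 members. In the amino acid sensing and ATF4 list 12 of 19 tested genes rose and 1, the translation-inhibiting kinase gene Eif2ak2, fell, with a median log2 change of 0.77. Atf3 and Trib3, counted among the 12, reached 1 FPKM in OGD libraries only. They entered the tests through the group where they are high, so their rise was partly set by the filter. The 3 with the smallest p were Chac1, a glutathione-degrading enzyme, Ddit3, a stress transcription factor, and Sesn2, a leucine-sensing inhibitor of mTORC1, with log2 changes of 3.75, 2.49 and 1.61 (limma adjusted p = 2.31e-08, 2.93e-08 and 3.19e-08). Named after their values were seen, Atf4 itself averaged 255.2 ± 20.9 FPKM in OGD and 93.1 ± 4.51 FPKM in Control (limma adjusted p = 1.98e-07). Eif2ak4, the kinase GCN2 that senses uncharged tRNA, averaged 3.28 ± 0.865 FPKM in OGD and 2.57 ± 0.267 FPKM in Control and was not called (SD, n = 4 each; limma adjusted p = 0.198).

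Among 15 synthetases and partners outside the 38 genes, 3 (Mtfmt, Pstk and Tarsl2) rose, 4 fell and 8 were not called. Dtd2, which removes wrongly attached amino acids from tRNA, fell to 3.31 ± 0.845 FPKM in OGD, against 10.6 ± 1.28 FPKM in Control (SD, n = 4 each; limma adjusted p = 1.87e-05). Gatc, a subunit of the enzyme that makes mitochondrial glutaminyl-tRNA, fell to 9.25 ± 1.30 FPKM in OGD, against 18.0 ± 1.81 FPKM in Control (adjusted p = 6.14e-05 by limma). Ptrh2, a peptidyl-tRNA hydrolase, fell by 0.61 on the log2 scale (limma adjusted p = 0.000556).

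Of 30 tested genes of tRNA export and cytosolic tRNA modification 12 rose and 5 (Elp2, Elp3, Elp4, Elp5 and Pus7) fell (median log2 change 0.19). Elp2, a subunit of the Elongator complex that modifies wobble uridines, fell by 0.56, while Alkbh8 and Trmt6, tRNA methyltransferase genes, rose by 0.75 and 0.54 on the log2 scale (limma adjusted p = 0.000271, 0.00035 and 0.000429). Of 16 tested genes of tRNA processing and mitochondrial tRNA maturation 6 rose and 1 (Osgepl1) fell (median 0.01). The number that fell rests on single libraries, at 4 when OGD replicate 4 was left out and at 2 when OGD replicate 1, OGD replicate 3 or Control replicate 2 was. Elac2, which trims the 3′ end of precursor tRNA, averaged 19.6 ± 0.689 FPKM in OGD and 12.6 ± 0.288 FPKM in Control (SD, n = 4 each; limma adjusted p = 3.37e-05). Alkbh1 and Trit1, which modify tRNA in both compartments, rose by 0.82 and 0.75 (limma adjusted p = 5.28e-05 and 0.00032). Of 13 tested mitochondrial translation factors 3 (Mtif2, Mtrf1l and Tsfm) rose and 3 fell (median -0.03). The 3 with the smallest p fell: Gfm2 and Mrrf, which recycle the mitochondrial ribosome, by 0.59 and 0.44, and the elongation factor Gfm1 by 0.41 (limma adjusted p = 0.000616, 0.003 and 0.000856). Genes named in brackets were chosen after their values were seen. The shares of these lists stand beside 22.7% of all tested genes that rose and 26.8% that fell. The lists were chosen with earlier results of these data known, so this comparison describes them and tests nothing.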

How the data were processed

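The values deposited by the authors were FPKM, 1 column a sample, per the file headers. Libraries were made from column-purified RNA with a strand-specific Agilent kit, per the labels' protocols. The tools Trimmomatic and FastQC and the rn6 (Rnor_6.0) assembly are listed in the submitters' processing notes. How reads were aligned, and whether FPKM used strand, is not given in the sources used here, so values of overlapping genes and close copies are uncertain. FPKM scales to the library total and holds no counts, so no counting interval could be made. Relative depth came from genes of at most 0.5 FPKM. After that offset, 76.6% to 79.0% of their ratios to Control replicate 1 lay within 0.01 on the log2 scale of a ratio of whole numbers up to 6.

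Samples were grouped by title. A gene entered the tests when 4 or more samples reached 1 FPKM (11149 of 32662). Tests used limma 3.58.1 (R 4.3.3) on log2(FPKM + 1), with a trended prior and no covariate. Calls were made at a Benjamini-Hochberg adjusted p of 0.05, and the steps were tested on simulated data. The pseudocount of 1 understates fold changes of low genes. Members and lists were chosen with earlier results of these data known. Values of every sample are given for the 8 cytosolic and 6 mitochondrial members with the largest absolute change, Gars, Kars, members called against their set, and the pairs that differ most and least. Of each list of related genes the 3 with the smallest p are named, and of each tested list of cell markers the 2 highest. Symbols were matched to RefSeq by name or older name. Alternatives were pseudocount 0.1, no filter, a filter of 5 FPKM, quantile normalization, rescaling outside mitochondrially encoded genes, the replicate number as a block, an untrended prior, samples left out, other memberships and a longer motif. Figures were drawn with matplotlib 3.10.9 in Python 3.11.15, and tables made with pandas 2.3.3. Some items are not reported here.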

Additional observations from a re-analysis of the deposited data

Results flagged for a closer look

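Members were read for single libraries at a distance from their group. There were 4 such cases among 74 groups, beside the 3.7 that chance alone would give. Dars was at 26.4 FPKM in OGD replicate 4 and at 22.0 to 22.6 FPKM in the other OGD libraries. Gars was at 69.9 FPKM in OGD replicate 2 and at 83.1 to 83.7 FPKM in the others, and Yars at 59.4 FPKM in the same library and at 71.0 to 73.3 FPKM in the others. Hars was at 46.7 FPKM in Control replicate 1 and at 42.1 to 42.7 FPKM in the other Control libraries. None of these libraries crossed into the range of the other group for Dars, Gars or Yars, and the groups of Hars overlap with or without it.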

How the results depend on the processing

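Of 36 tested members 30 kept their side of the threshold under all of up to 16 alternatives, and no called member changed direction. The exceptions were Kars, Aimp2, Cars2, Lars2, Vars2 and Yars2. The cytosolic counts were 13 higher and 2 lower when any single library was left out. With single libraries left out, 1 to 2 mitochondrial members were higher and 2 to 3 lower, 2176 to 2435 of all genes were higher and 2499 to 3015 lower, and the difference between sets was 0.48 to 0.54. The mitochondrial members called higher were 2 with quantile normalization, with rescaling outside mitochondrially encoded genes, with the replicate block and without Control replicate 1 and OGD replicate 4 together, where 1 was lower; the cause was not tested. In each of these fits Yars2 was the added call (0.43 in the replicate block fit). Same-numbered deviations correlated at -0.222, 0.163, 0.0105 and 0.0902, beside -0.328 to 0.221 for samples of different number. No pairing by number was seen, but weak correlations cannot show that samples were not prepared in pairs. With rescaling 2 mitochondrial members were lower, without Lars2. With a filter of 5 FPKM 2 interferon-inducible genes fell, and with no filter 1 rose. With no filter Pars2 was tested and called lower. Aimp2 was called without Control replicate 1 and OGD replicate 4 together (0.22). The longer letters TGATGNAAT stood in 2 cytosolic promoters (Aars and Iars), fewer by construction. Total depth is unknown, so the fragments behind the lowest members, Ears2 and Pars2, cannot be given.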
